A study of Rattus norvegicus with 10 samples.

Results

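The P2X and P2Y receptors are the cell-surface receptors for ATP and related nucleotides. The rows of the deposited count table that bear the gene names P2rx2, P2rx3, P2rx4, P2rx5, P2rx6, P2rx7, P2ry1, P2ry2 and P2ry12 were taken, which gave 9 genes of the 30560 in the table. All 9 had enough counts to be tested, as had 15186 genes in all.

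P2X receptors are cation channels that ATP opens directly, whereas P2Y receptors act through G proteins. In sensory ganglia, ATP released by damaged or stretched tissue excites nociceptors, the neurons that signal painful stimuli, through channels built from P2X3 and P2X2 subunits. Glia and macrophages carry other members of the family, among them P2X7, P2X4 and P2Y12, through which they respond to extracellular ATP and ADP.

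The receptors were measured by RNA sequencing of Sprague Dawley rats, 7 to 8 weeks old, in the L6 dorsal root ganglia, which hold the cell bodies of sensory neurons. One group of 5 samples had received SCN9A_2544, a divalent siRNA (small interfering RNA) against the sodium channel gene Scn9a, at 0.75 mg, and the other group of 5 had received PBS (phosphate-buffered saline) and 0 mg of siRNA. All rats carried a lumbar intrathecal catheter, received the analgesic meloxicam, and were dosed 5 days after surgery; the labels give a timepoint of 14 days without saying from when it counts. The series design asks how specific the siRNA is, and no group given another siRNA was analysed here, so that effects of this sequence and of any siRNA cannot be told apart.

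The 10 libraries held 11832376 to 15420006 estimated counts each. Expression is given as CPM, a gene's counts relative to its library's total after TMM scaling, which allows a gene to be compared between libraries but not with another gene, since transcript length was not corrected for. The targeted gene Scn9a averaged 85.4 ± 23.9 CPM in SCN9A_2544 ganglia and 175 ± 50.2 CPM in PBS ganglia (SD, n = 5 each), without overlap of the groups. Its edgeR log2 fold change was -1.03 (95% interval -1.57 to -0.49, unadjusted p = 0.00134, adjusted p = 0.963). All 20 pan-neuronal markers were measured, at summed levels of 15600 to 43300 CPM in SCN9A_2544 libraries and 19200 to 45100 CPM in PBS libraries. Marker lists whose group means differed included nerve injury genes (mean 4.27 ± 0.71 log2 CPM in SCN9A_2544 and 3.37 ± 0.16 in PBS libraries, 15 of 15 tested genes above 0), macrophage markers (4.20 ± 0.35 and 3.80 ± 0.19 in the same order, 20 of 23 above 0) and satellite glia markers (6.81 ± 0.18 and 6.51 ± 0.14, 11 of 14 above 0), where above 0 means a log2 fold change above 0. In the other direction went Schwann cell and myelin markers (8.65 ± 0.84 and 8.97 ± 1.00, 1 of 14 above 0), whose library ranges of 7.74 to 10.01 and 7.63 to 9.88 nearly coincided. The ranges of the groups overlapped in each of these lists, and none was tested as a list. SCN9A_2544 replicate 3, PBS replicate 3 and PBS replicate 5 stood apart by their low pan-neuronal means of 7.72, 7.99 and 8.24 log2 CPM and are called the 3 neuron-poor libraries; the values without them are given where they differ.

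RefSeq promoter windows of the GRCr8 build, each 250 bases before a transcription start and 50 after it, were found for 6 of the 9 genes. Those of P2rx3, the receptor gene of nociceptors, and P2rx7, the one that varied most between these libraries, are shown because these genes ran in opposite directions across the ganglia. RefSeq gives P2rx3 a window at each of 2 starts. Capitals mark matches, on either strand, to RUNX core letters (TGTGGT or TGCGGT) or SOX core letters (ACAAAG or ACAATG); RUNX proteins act in nociceptors and SOX proteins in glia.
P2rx3, chr3:90531266-90531565, minus strand: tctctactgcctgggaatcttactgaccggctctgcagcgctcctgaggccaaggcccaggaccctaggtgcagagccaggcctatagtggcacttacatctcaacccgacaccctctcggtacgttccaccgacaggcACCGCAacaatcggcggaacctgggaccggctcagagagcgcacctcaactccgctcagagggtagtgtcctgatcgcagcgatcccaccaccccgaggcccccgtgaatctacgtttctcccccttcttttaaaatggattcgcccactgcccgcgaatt
P2rx3, chr3:90529260-90529559, minus strand: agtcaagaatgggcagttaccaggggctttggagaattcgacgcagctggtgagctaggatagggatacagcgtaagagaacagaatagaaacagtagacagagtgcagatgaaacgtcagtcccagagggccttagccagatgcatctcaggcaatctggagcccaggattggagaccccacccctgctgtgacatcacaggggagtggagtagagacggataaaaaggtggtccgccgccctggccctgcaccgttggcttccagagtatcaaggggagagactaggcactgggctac
P2rx7, chr12:39594873-39595172, minus strand: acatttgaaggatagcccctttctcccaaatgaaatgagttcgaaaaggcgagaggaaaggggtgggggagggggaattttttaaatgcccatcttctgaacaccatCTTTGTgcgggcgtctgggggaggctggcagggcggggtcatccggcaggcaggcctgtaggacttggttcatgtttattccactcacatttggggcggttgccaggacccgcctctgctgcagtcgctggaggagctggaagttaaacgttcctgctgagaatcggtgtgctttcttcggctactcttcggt
The first P2rx3 window held 1 RUNX match and the P2rx7 window 1 SOX match, while 22.9% of all 33469 promoter windows held the RUNX letters and 29.1% the SOX letters. The other P2rx3 window held neither. The P2rx7 window held 13 CpG dinucleotides, against 20 and 8 in the P2rx3 windows and a median of 7 over all windows. These matches describe the letters only.

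The siRNA comparison gave no call among the receptors. In edgeR's quasi-likelihood test 0 of the 9 passed an adjusted p of 0.05, against 0% of all 15186 tested genes, and 0 of the 9 had an unadjusted p under 0.05, against 4.23% of all tested genes. DESeq2 and limma voom with library weights also called 0 of the 9, against 0.079% and 0.00659% of all tested genes (12 and 1 genes). The libraries of the groups overlapped for each of the 9 genes, while 0.665% of tested genes had groups without overlap. Of the 9 log2 fold changes 4 lay above 0 and 5 below, with a median of -0.02, beside 53.4% above 0 and a median of 0.02 over all tested genes.

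**Figure D1:**
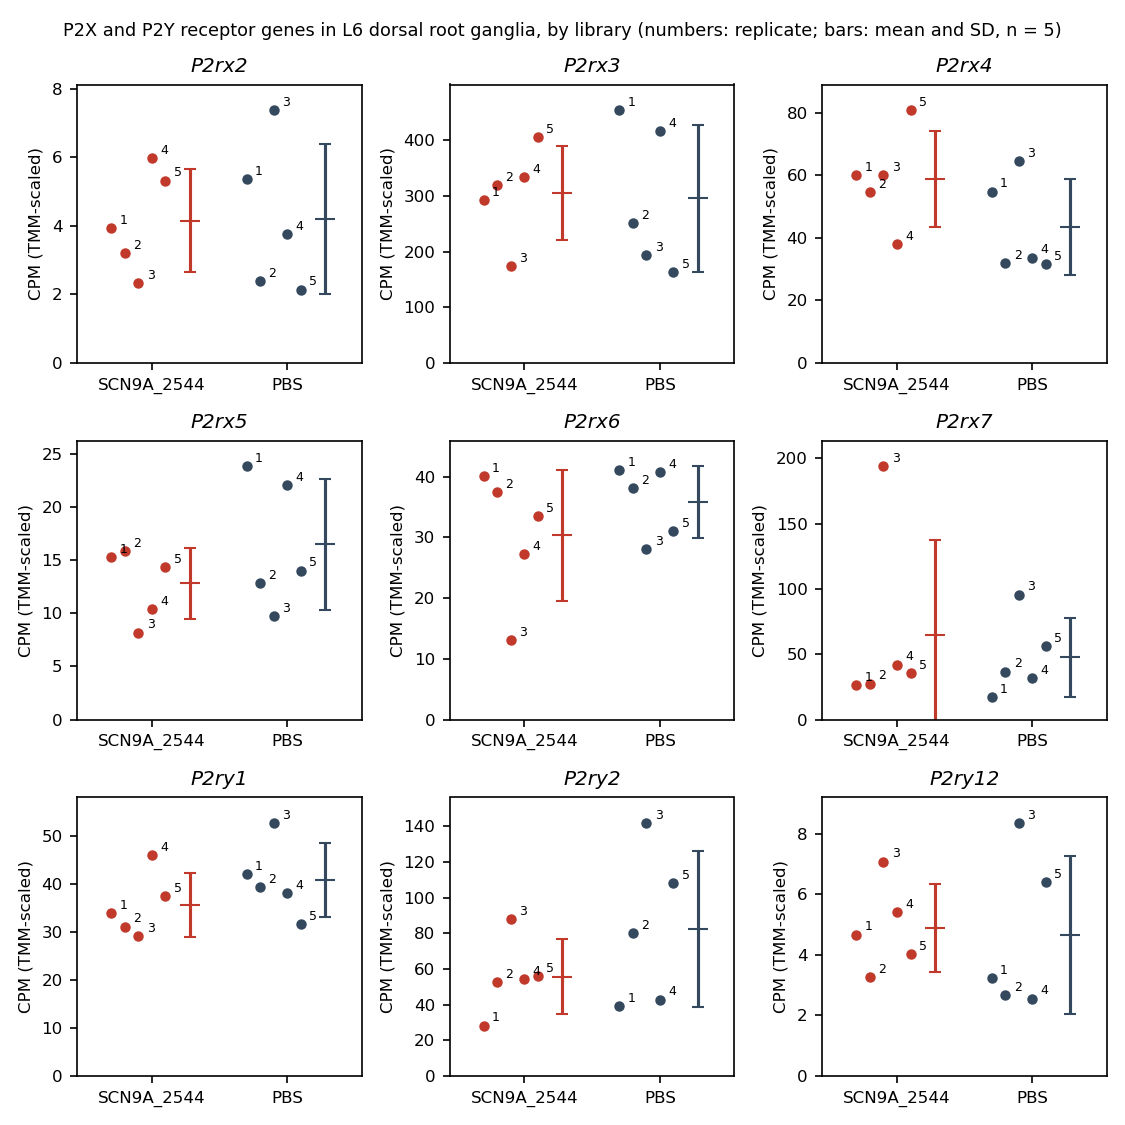
CPM of the 9 receptor genes (y axes, linear from 0, 1 scale per gene) in the 5 SCN9A_2544 libraries, left, and the 5 PBS libraries, right; points are libraries numbered by replicate, and bars give the mean and SD, with the lower end of the P2rx7 bar in SCN9A_2544 cut at 0. The groups overlap in every panel, and P2rx7 in SCN9A_2544 replicate 3, at 194 CPM, lies far above the other libraries.

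Among the channel genes of neurons, P2rx3 (ENSRNOG00000008552) encodes the ATP-gated channel subunit of small nociceptors. It stood at 292, 319, 174, 334 and 405 CPM in SCN9A_2544 replicates 1 to 5, against 454, 251, 194, 416 and 163 CPM in PBS replicates 1 to 5. The SCN9A_2544 values lay inside the PBS range. The log2 fold change was 0.05 (SE 0.31, 95% interval -0.63 to 0.72, edgeR adjusted p = 0.996), an interval from 0.648-fold to 1.64-fold. When the pan-neuronal mean entered as covariate, the interval narrowed to -0.32 to 0.36 around 0.02. Other fits gave 0.33 (limma voom with library weights), 0.41 (macrophage mean as covariate, 95% interval -0.40 to 1.23) and 0.79 (satellite glia mean as covariate, 0.04 to 1.55, edgeR unadjusted p = 0.0405, adjusted p = 0.166). The macrophage and satellite glia means were higher on average in SCN9A_2544 libraries, so fits with them cannot fully separate covariate and siRNA. The sign turned without SCN9A_2544 replicate 5 (-0.08) and without PBS replicate 2 (-0.01), 3 (-0.07) or 5 (-0.13), and the log2 fold change was -0.17 without the 3 neuron-poor libraries. The deposited P2rx3 estimates lay more than 0.01 from a whole number in 10 of 10 libraries, and those of the other 8 receptors in 0.

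P2rx2 (ENSRNOG00000037456) encodes the subunit that joins P2X3 in a heteromeric channel. It was measured at low depth, with 604 counts over the 10 libraries, and ranged from 2.32 to 5.98 CPM in SCN9A_2544 ganglia and from 2.14 to 7.38 CPM in PBS ganglia. Its log2 fold change was -0.02 (95% interval -0.84 to 0.81, edgeR adjusted p = 0.997). The sign was not stable: it turned without SCN9A_2544 replicate 1 (0.00), 2 (0.06) or 3 (0.10) and without PBS replicate 1 (0.09) or 3 (0.29). Within a library, P2rx2 minus P2rx3 on the log2 CPM scale averaged -6.18 ± 0.29 in SCN9A_2544 and -6.12 ± 0.83 in PBS ganglia (SD, n = 5 each, two-sided exact permutation p = 0.952, adjusted p = 0.952 over 7 such measures). PBS replicate 3, at -4.69, lay apart from the other PBS libraries, and without it the difference between the groups was 0.30 (exact permutation p = 0.143).

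P2rx5 (ENSRNOG00000019208) and P2rx6 (ENSRNOG00000001873) encode P2X subunits present in sensory neurons; P2X6 forms channels poorly on its own and joins other subunits. P2rx5 stood at 15.3, 15.8, 8.17, 10.4 and 14.3 CPM in SCN9A_2544 replicates 1 to 5, against 23.8, 12.8, 9.70, 22.0 and 14.0 CPM in PBS replicates 1 to 5. All 5 SCN9A_2544 libraries lay below the PBS mean of 16.5 CPM, but 3 of them lay above the PBS median of 14.0 CPM. The ranges overlapped. The log2 fold change was -0.36 (SE 0.27, 95% interval -0.96 to 0.24, edgeR adjusted p = 0.963), and 0.02 by limma voom with library weights. It was -0.19 without PBS replicate 1 and -0.23 without PBS replicate 4.

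P2rx6 stood at 40.1, 37.5, 13.1, 27.3 and 33.5 CPM in SCN9A_2544 replicates 1 to 5, against 41.0, 38.1, 28.0, 40.7 and 31.0 CPM in PBS replicates 1 to 5. SCN9A_2544 replicate 3 was lower than all other libraries. The log2 fold change was -0.24 (SE 0.26, 95% interval -0.80 to 0.32, edgeR adjusted p = 0.971), and -0.08 without that library.

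Set against the neuronal content of each library, P2rx5 and P2rx6 were the 2 receptors with unadjusted exact p-values under 0.05, and neither passed after adjustment. The share of all tested genes under 0.05 in this exact test was not computed. Gap43, among the 20 pan-neuronal markers, is also on the nerve injury list, whose mean was higher in SCN9A_2544 libraries. The differences without Gap43 were not computed. P2rx6 minus the pan-neuronal mean was -3.84 ± 0.13 in SCN9A_2544 and -3.43 ± 0.22 in PBS ganglia on the log2 scale (SD, n = 5 each), a difference of -0.41 with all 5 SCN9A_2544 libraries below the PBS mean (two-sided exact permutation p = 0.0159, adjusted p = 0.143 over the 9 receptors). P2rx5 minus the pan-neuronal mean was -5.02 ± 0.22 in SCN9A_2544 and -4.61 ± 0.24 in PBS ganglia, a difference of -0.40 with all 5 below the PBS mean (exact permutation p = 0.0317, adjusted p = 0.143). The smallest p that the 252 splits of 10 libraries allow is 0.00794. With 1 library left out the P2rx6 difference ran from -0.47 to -0.34 and that of P2rx5 from -0.50 to -0.34; the exact permutation p of P2rx5 was 0.0556 without SCN9A_2544 replicate 1, 4 or 5 and 0.0635 without PBS replicate 1, 4 or 5. Without the 3 neuron-poor libraries, an alternative chosen after seeing the data, they were -0.23 (exact permutation p = 0.0857) and -0.45 (exact permutation p = 0.0286). Adjusting the edgeR fit for the pan-neuronal mean gave log2 fold changes of -0.39 for P2rx6 (SE 0.12) and -0.41 for P2rx5 (SE 0.15), both with an adjusted p = 0.504. In the fit with the pan-neuronal mean 2 of the 9 receptors had an unadjusted p under 0.05, beside 1443 of all 15186 tested genes. The log2 fold changes were also fitted with the other means. With the Schwann cell and myelin mean as a covariate they were -0.44 for P2rx6 and -0.48 for P2rx5 (edgeR adjusted p = 0.558 and 0.53). With the macrophage mean as a covariate instead, the signs turned, to 0.11 for P2rx6 and 0.14 for P2rx5, and with the satellite glia mean to 0.39 and 0.41. The macrophage and satellite glia covariates tracked the groups, with satellite glia means of 6.65 to 7.11 log2 CPM in SCN9A_2544 and 6.35 to 6.71 in PBS libraries. For macrophages they were 3.87 to 4.61 and 3.51 to 4.05. The fits with these 2 means therefore cannot fully separate covariate and siRNA. The other 7 receptors had unadjusted exact p-values of 0.421 or more against the pan-neuronal mean, and P2rx3 minus that mean differed by 0.03 (exact permutation p = 0.833).

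**Figure D2:**
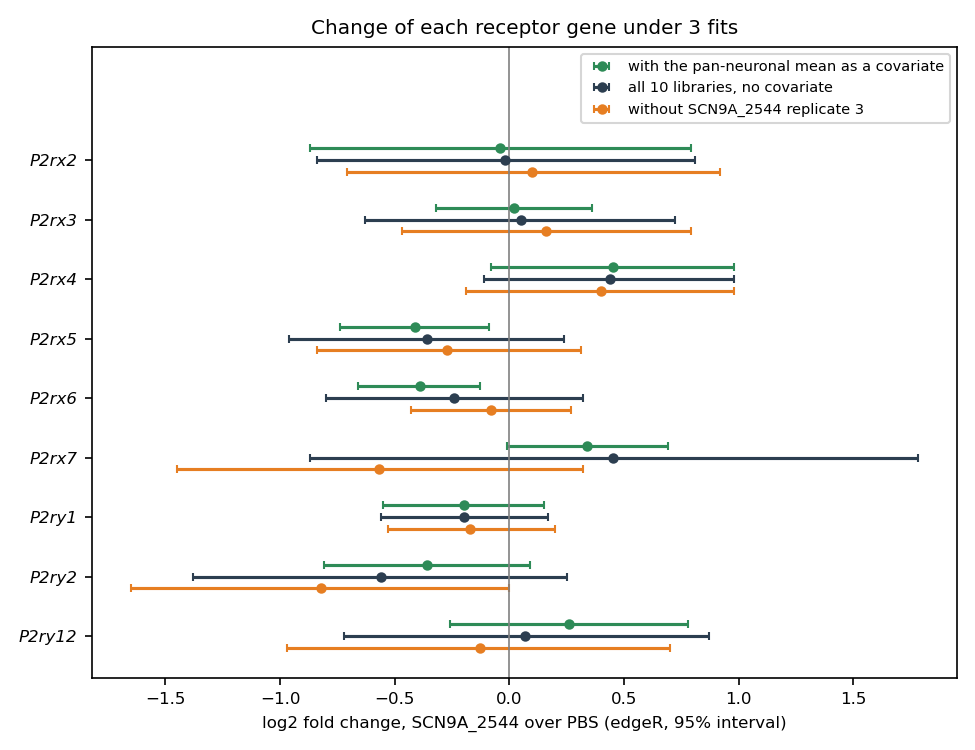
Log2 fold change of each receptor gene, SCN9A_2544 over PBS, with 95% intervals from edgeR (x axis), for all 10 libraries, for the fit adjusted for the pan-neuronal mean, and without SCN9A_2544 replicate 3. The interval of P2rx7 shrinks to between -0.01 and 0.69 with the covariate, and its value moves to -0.57 without that library.

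P2rx4 and P2rx7 lie next to each other in the rat genome, per the RefSeq gene order of GRCr8, and encode channels of macrophages and glia. P2rx4 (ENSRNOG00000001300) encodes a channel found on macrophages and, in lower amounts, neurons. It stood at 60.1, 54.7, 60.0, 37.9 and 80.9 CPM in SCN9A_2544 replicates 1 to 5, against 54.8, 31.9, 64.6, 33.7 and 31.7 CPM in PBS replicates 1 to 5. All 5 SCN9A_2544 libraries lay above the PBS median of 33.7 CPM, and 4 of them above the PBS mean of 43.3 CPM. PBS replicates 1 and 3 lay within the SCN9A_2544 range. The log2 fold change was 0.44 (SE 0.25, 95% interval -0.11 to 0.98, edgeR adjusted p = 0.963). It stayed above 0 in all 23 alternatives run on it, between 0.26 and 0.74. The lowest came with the satellite glia mean as a covariate (95% interval -0.50 to 1.01). The log2 fold change was 0.29 without SCN9A_2544 replicate 5. Macrophage markers, whose summed level ran from 618 to 1120 CPM in SCN9A_2544 and 558 to 815 CPM in PBS libraries with 0 of the 23 listed at 0 in any library, also had a higher mean in SCN9A_2544 than in PBS libraries. Over the 10 libraries the level of P2rx4 had no detectable relation to theirs (r = -0.03, with a permutation p of 0.938; rho = 0.13, with a permutation p of 0.732; adjusted p = 0.938 and 0.913 over 45 relations), and P2rx4 minus the macrophage mean differed by 0.06 (exact permutation p = 0.881, adjusted p = 0.952). With the macrophage mean as a covariate, by contrast, the log2 fold change was 0.74 (95% interval 0.10 to 1.39, edgeR unadjusted p = 0.0281, adjusted p = 0.609). Against the satellite glia mean, P2rx4 had r = 0.51 and rho = 0.62 over the 10 libraries (permutation, adjusted p = 0.243 and 0.136). The macrophage and satellite glia means were higher on average in SCN9A_2544 libraries, so fits with them cannot fully separate covariate and siRNA.

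P2rx7 (ENSRNOG00000001296) encodes the channel that opens at high ATP levels and, in macrophages, drives release of interleukin-1. It stood at 26.4, 27.6, 194, 42.1 and 35.4 CPM in SCN9A_2544 replicates 1 to 5, against 17.3, 36.7, 95.8, 31.5 and 56.5 CPM in PBS replicates 1 to 5. The replicates numbered 3 were the highest of each group. Its span of 11.2-fold between the lowest and the highest library was wider than that of 96.9% of tested genes, whose median span was 2.21-fold. The log2 fold change was 0.45 (SE 0.61, 95% interval -0.87 to 1.78, edgeR adjusted p = 0.975), and -0.57 without SCN9A_2544 replicate 3. With the Schwann cell and myelin mean as a covariate it was 0.55 (SE 0.23, adjusted p = 0.584), with the macrophage mean -1.0 (SE 0.61, adjusted p = 0.609) and with the satellite glia mean -1.56 (SE 0.43, adjusted p = 0.123). The macrophage and satellite glia means were themselves higher on average in SCN9A_2544 libraries. By limma voom with library weights the log2 fold change was -0.29. P2rx4 minus P2rx7 differed by 0.27 on the log2 scale between the groups (exact permutation p = 0.706, adjusted p = 0.952).

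Of the G protein-coupled receptors, P2ry1 (ENSRNOG00000014232) encodes an ADP receptor present in sensory neurons. It varied least, by 1.81-fold over the libraries, a span wider than that of 32.4% of tested genes. It averaged 35.5 ± 6.66 CPM in SCN9A_2544 and 40.8 ± 7.69 CPM in PBS ganglia (SD, n = 5 each), and 1 of the 5 SCN9A_2544 libraries, replicate 4 at 46.0 CPM, lay above the PBS mean. Its log2 fold change of -0.20 had the narrowest interval of the 9, from -0.56 to 0.17 (edgeR adjusted p = 0.963), which in folds is 0.678 to 1.12. The value was -0.31 without SCN9A_2544 replicate 4 and -0.09 without PBS replicate 3.

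P2ry2 (ENSRNOG00000019283) encodes a receptor for both ATP and UTP. It stood at 28.3, 52.6, 87.9, 54.3 and 56.0 CPM in SCN9A_2544 replicates 1 to 5, against 39.3, 80.4, 142, 42.9 and 108 CPM in PBS replicates 1 to 5. Only SCN9A_2544 replicate 3 exceeded the PBS mean of 82.4 CPM. The log2 fold change of -0.56 (SE 0.37, 95% interval -1.38 to 0.25, edgeR adjusted p = 0.963) was the lowest of the 9 receptors. It stayed below 0 in all 23 alternatives, between -1.28 and -0.21, and the value nearest 0 came without the 3 neuron-poor libraries. With the Schwann cell and myelin mean as a covariate it was -0.24 (SE 0.14, adjusted p = 0.637). Leaving out SCN9A_2544 replicate 3 gave -0.82, and leaving out PBS replicate 3 gave -0.28.

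P2ry12 (ENSRNOG00000013902) encodes an inhibitory ADP receptor of platelets, microglia and some other glia and macrophages. With 694 counts over the 10 libraries it ranged from 3.26 to 7.08 CPM in SCN9A_2544 and from 2.56 to 8.36 CPM in PBS ganglia. Its log2 fold change was 0.07 (95% interval -0.72 to 0.87, edgeR adjusted p = 0.995). The sign turned without SCN9A_2544 replicate 3 (-0.13) and without PBS replicate 1 (-0.03), 2 (-0.07) or 4 (-0.08), and the value was 0.60 (adjusted p = 1) without the 3 neuron-poor libraries. It was -0.33 with the macrophage mean and -0.57 with the satellite glia mean as a covariate, and both means were higher on average in SCN9A_2544 libraries. Markers of central glia were near 0: 7 of 9 had too few counts to be tested, and Olig2, of oligodendrocytes, was at 0 in 7 of 10 libraries. The 2 tested central glia markers, Tmem119 and Sall1, summed to 3.47 to 5.92 CPM in SCN9A_2544 and 2.13 to 3.47 CPM in PBS libraries; their part in the P2ry12 values was not tested. P2ry12 minus the satellite glia mean differed by -0.11 (exact permutation p = 0.738) and minus the macrophage mean by -0.21 (exact permutation p = 0.563), each with an adjusted p = 0.952.

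Across the 10 libraries of both groups, 5 of the receptors varied with the RNA of neurons or of Schwann cells, which ensheathe peripheral axons. The log2 CPM of each receptor was set against the mean log2 CPM of 5 marker lists over the 10 libraries, which gave 45 relations; in 12 of them both Pearson's r and Spearman's rho passed a permutation test after adjustment over the 45. Many genes did the same: at the p limits this adjustment set, 0.0175 for r and 0.0148 for rho, 24.8% of all tested genes outside the list passed against the pan-neuronal mean, 14.8% against the non-peptidergic nociceptor mean and 25.9% against the Schwann cell and myelin mean, and 32.8% against at least 1 of these lists. The relations thus describe the receptors and are not particular to them. The values of a relation come from the same libraries and are shares of the same totals, and in bulk tissue fewer cells of a type and less RNA per cell cannot be told apart.

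P2rx3, P2rx5 and P2rx6 were higher in libraries with more neuronal and less myelin RNA. P2rx3 followed the markers of non-peptidergic nociceptors (r = 0.93, permutation p = 0.00022, adjusted p = 0.00247; rho = 0.89, permutation p = 0.00117, adjusted p = 0.0105; r = 0.93 without the 2 libraries farthest from the median). Against the pan-neuronal mean its r of 0.87 passed (permutation p = 0.00133, adjusted p = 0.0119), but its rho of 0.73 did not (permutation p = 0.0201, adjusted p = 0.0573). The r of P2rx5 and P2rx6 against the non-peptidergic nociceptor mean, 0.70 and 0.56, did not pass (permutation, adjusted p = 0.0602 and 0.165). P2rx6 followed the pan-neuronal mean (r = 0.84, permutation p = 0.00198, adjusted p = 0.0127; rho = 0.78, permutation p = 0.0107, adjusted p = 0.0369; r = 0.64 without 2 libraries). P2rx5 did so as well (r = 0.80, permutation p = 0.00574, adjusted p = 0.0258; rho = 0.87, permutation p = 0.00212, adjusted p = 0.0136; r = 0.54 without 2 libraries). Against the Schwann cell and myelin mean the r values of P2rx3, P2rx5 and P2rx6 were -0.88, -0.78 and -0.69, with rho of -0.81, -0.92 and -0.85, permutation p of 0.00159, 0.0089 and 0.00775 for r (adjusted p = 0.0119, 0.0308 and 0.0308) and r of -0.80, -0.58 and -0.56 without 2 libraries.

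P2rx7 and P2ry2 ran the other way. P2rx7 was higher with a higher Schwann cell and myelin mean (r = 0.88, permutation p = 2e-05, adjusted p = 0.00075; rho = 0.98, permutation p = 1e-05, the smallest the permutations can give, adjusted p = 0.00045; r = 0.89 without 2 libraries). P2ry2 did likewise (r = 0.94, permutation p = 4e-05, adjusted p = 0.00075; rho = 0.94, permutation p = 0.00019, adjusted p = 0.00427; r = 0.96 without 2 libraries). Against the pan-neuronal mean their r values were -0.95 and -0.83, with rho of -0.88 and -0.89 and permutation p of 5e-05 and 0.00226 for r (adjusted p = 0.00075 and 0.0127), and r of -0.80 and -0.85 without 2 libraries. Both also ran against the non-peptidergic nociceptor mean, with r of -0.75 for P2rx7 and -0.77 for P2ry2 (permutation p = 0.0104 and 0.0108, adjusted p = 0.0311 each; rho = -0.84 and -0.79).

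**Figure D3:**
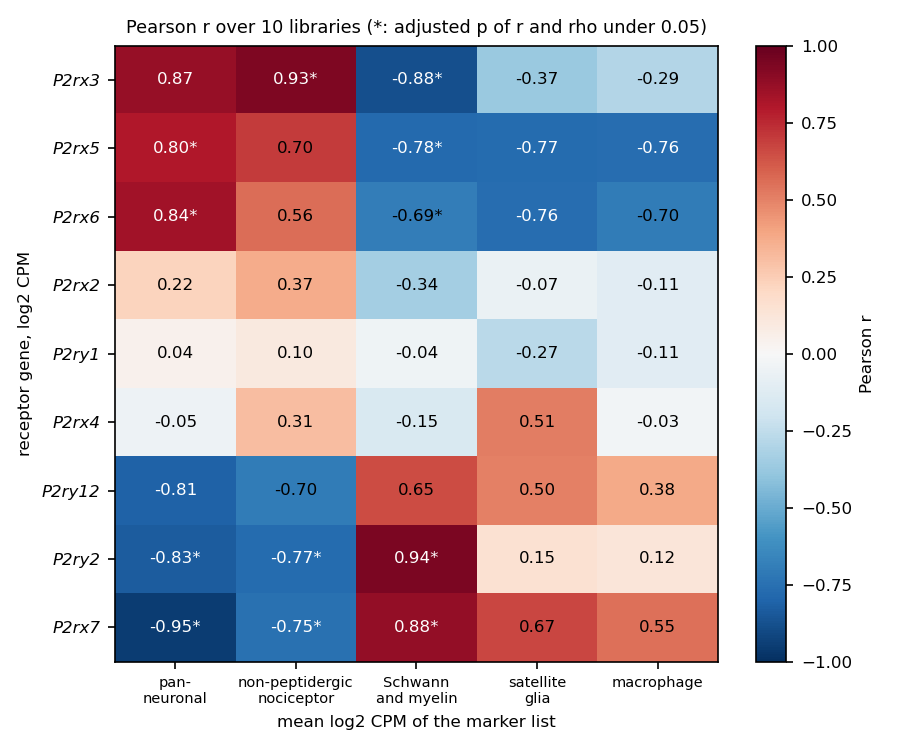
Pearson r over the 10 libraries between the log2 CPM of each receptor gene (rows) and the mean log2 CPM of 5 marker lists (columns); colour gives r from -1 to 1, and an asterisk marks the 12 relations in which r and rho both passed after adjustment. The first 3 rows are red with neuronal markers and blue with Schwann cell markers, and the P2ry2 and P2rx7 rows are the reverse.

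The satellite glia and macrophage lists gave no relation in which both r and rho passed, and 1.34% and 0.547% of all tested genes outside those lists passed against them. P2rx2, P2ry1 and P2rx4 had no relation that passed with any of the 5 lists. P2ry12 had r = -0.81 with the pan-neuronal mean (permutation p = 0.00403, adjusted p = 0.0201), but its rho of -0.72 did not pass (permutation p = 0.0231, adjusted p = 0.0612). Since the 3 libraries of low pan-neuronal mean stand apart, the 12 relations were also computed in the other 7, a choice made after seeing the data. All 12 kept their sign there. Only r was tested in the 7 libraries, and the r of 0 of the 12 passed after adjustment, with r = 0.92 for P2ry2 (adjusted p = 0.0982) and r = 0.80 for P2rx7 (adjusted p = 0.274) against the Schwann cell and myelin mean, by permutation. In the 7 libraries the r of P2rx5 against the macrophage mean passed (r = -0.91, permutation p = 0.000992, adjusted p = 0.0446 over 45), with an untested rho of -0.96. In the 10 libraries r had passed for this relation as well (r = -0.76, permutation p = 0.0111, adjusted p = 0.0311). Its rho had not passed there (rho = -0.62, permutation p = 0.0599, adjusted p = 0.136). The share of all tested genes that passed in the 7 libraries was not computed. In these 7 the edgeR log2 fold change of P2rx5 was -0.51, and macrophage markers were higher on average in SCN9A_2544 libraries. The relation of P2rx5 to the macrophage mean thus cannot be fully told apart from the groups.

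**Figure D4:**
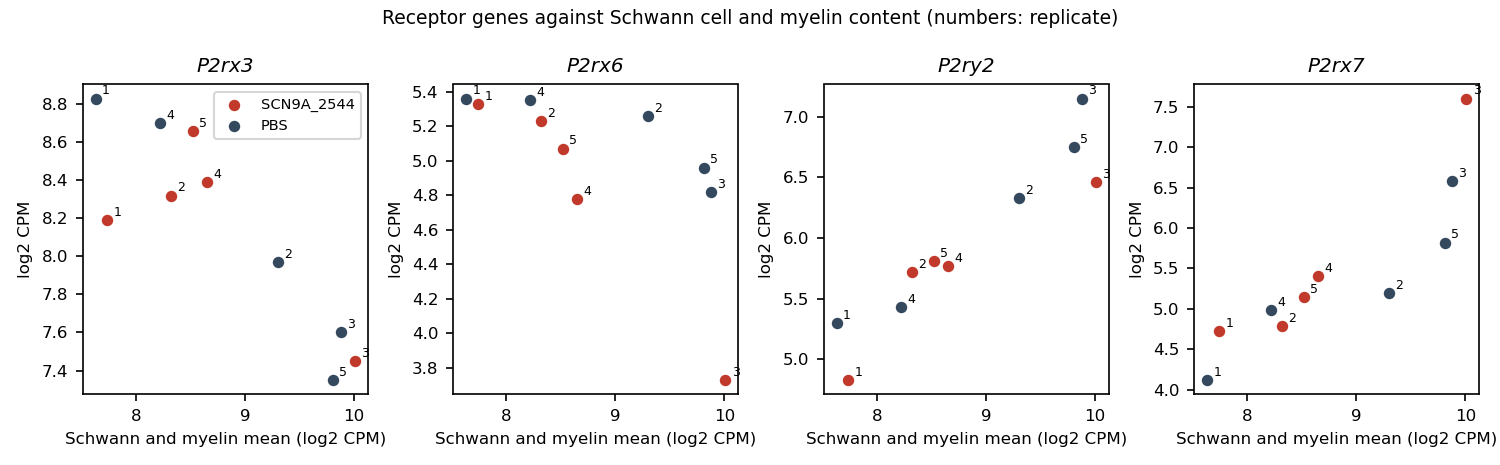
Log2 CPM of P2rx3, P2rx6, P2ry2 and P2rx7 (y axes) against the mean log2 CPM of Schwann cell and myelin markers (x axis) in the SCN9A_2544 and PBS libraries, numbered by replicate. P2rx3 and P2rx6 fall to the right and P2ry2 and P2rx7 climb, with SCN9A_2544 and PBS libraries mixed along the x axis. In the P2rx6 panel SCN9A_2544 replicates 4 and 5, at 4.78 and 5.07, lie below PBS replicate 2, at 5.26, which lies farther right.

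The within-group SD of log2 CPM was 1.06 for P2rx7, 0.71 for P2ry2, 0.61 for P2ry12, 0.56 for P2rx3 and 0.26 for P2ry1, beside a median of 0.35 over all tested genes. Without the 3 neuron-poor libraries it was 0.46 for P2rx7, 0.24 for P2ry12, 0.36 for P2rx3, 0.52 for P2ry2 and 0.18 for P2rx6, which had 0.49 with all libraries. P2rx4 kept an SD of 0.44 with and without them.

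Pairs of receptors that varied together are given as a description, over 10 libraries that share their scaling. P2rx5 and P2rx6 had r = 0.80, and P2rx2 and P2ry1 had r = 0.81 although neither followed a marker list. P2rx7 and P2ry2 had r = 0.74, P2rx7 and P2rx6 had r = -0.91, and the chromosomal neighbours P2rx4 and P2rx7 had r = 0.12.

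Among the tested genes with a symbol, those whose log2 CPM had the highest Pearson r with P2rx3 over the 10 libraries were Hsdl1 (0.994), the nicotinic acetylcholine receptor subunit gene Chrna3 (0.989) and Tmem200a (0.986). Nearest to P2rx7 were Vim, the intermediate filament vimentin, at 0.996, the laminin chain gene Lama4 at 0.995 and Serinc5 at 0.995. Nearest to P2ry2 were Ephx4 (0.979), Gatm, an enzyme of creatine synthesis (0.978), and Sft2d1 (0.976). For P2rx6 they were Adgrg2 (0.967), Hebp2 (0.961) and Clrn1 (0.960), and for P2rx5 Spatc1l (0.949), Ndufa8 (0.945) and Ccdc32 (0.943). For P2rx2 they were Plppr5 (0.968), Zfp846 (0.959) and Cipc (0.945), for P2ry1 Gramd1c (0.934), Bbs10 (0.930) and Zmpste24 (0.901), and for P2ry12 Erlin1 (0.977), Zbtb26 (0.973) and Crem (0.959). P2rx4 had the least close matches, Adam1a (0.902), Urb1 (0.881) and Tctn1 (0.846). These genes were chosen for their likeness from the many tested genes with a symbol, so the values are a description. Placeholder symbols such as those with LOC and the receptors themselves were left out of that choice.

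The genes that release, break down and sense ATP and adenosine around these receptors gave no call either. Of 51 such genes named, 49 had a row and 42 were tested, and 0 passed by edgeR, against 0% of all tested genes. With 1 of 42 at an unadjusted p under 0.05 and 26 of 42 above 0, they stood beside 4.23% and 53.4% of all tested genes. Of the other P2 receptors 5 of 6 were tested, with a median log2 fold change of -0.01. P2ry6, a UDP receptor of macrophages and the genomic neighbour of P2ry2, was the gene under 0.05: it averaged 4.61 ± 1.60 CPM in SCN9A_2544 and 2.76 ± 0.896 CPM in PBS ganglia (SD, n = 5 each). Its log2 fold change was 0.74 (SE 0.30, edgeR unadjusted p = 0.0327, adjusted p = 0.963). P2ry14, a receptor for UDP-glucose, had -0.84 (95% interval -1.70 to 0.02) and P2ry13, an ADP receptor and the neighbour of P2ry12, had 0.41 (-0.30 to 1.12).

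The ATP release list had 7 of 10 members tested, 6 of them above 0, with a median of 0.34. Gja1, the connexin of satellite glia, had a log2 fold change of 0.48 (95% interval -0.03 to 0.99) and is also one of the satellite glia markers that were higher in sum. Slc17a9, the transporter that loads ATP into vesicles, had 0.64 (-0.06 to 1.34) and Lrrc8a, a subunit of the volume-regulated anion channel, 0.34 (-0.08 to 0.76). Ectonucleotidases, which break down extracellular nucleotides, had 7 of 10 tested and a median of 0.07. Their 3 smallest p-values belonged to Enpp1 at -0.53 (-1.23 to 0.17), Nt5e at 0.26 (-0.09 to 0.61) and Alpl at 0.12 (-0.33 to 0.58).

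The 3 tested adenosine receptor genes Adora2b, Adora1 and Adora2a had log2 fold changes of 0.23, 0.18 and -0.03. Genes of adenosine uptake and metabolism had a median of 0.03 over 8, with the nucleoside transporter genes Slc29a2 at 0.35 (-0.05 to 0.74) and Slc29a4 at 0.25 (-0.25 to 0.74), and the adenosine deaminase gene Ada at 0.26 (-0.27 to 0.78). Of 12 signalling partners, with a median of 0.07, the inflammasome sensor gene Nlrp3, which acts downstream of P2X7, had 0.57 (-0.07 to 1.20), and the phospholipase C genes Plcb1 and Plcb4 had -0.39 (-0.86 to 0.07) and -0.25 (-0.55 to 0.06).

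**Figure D5:**
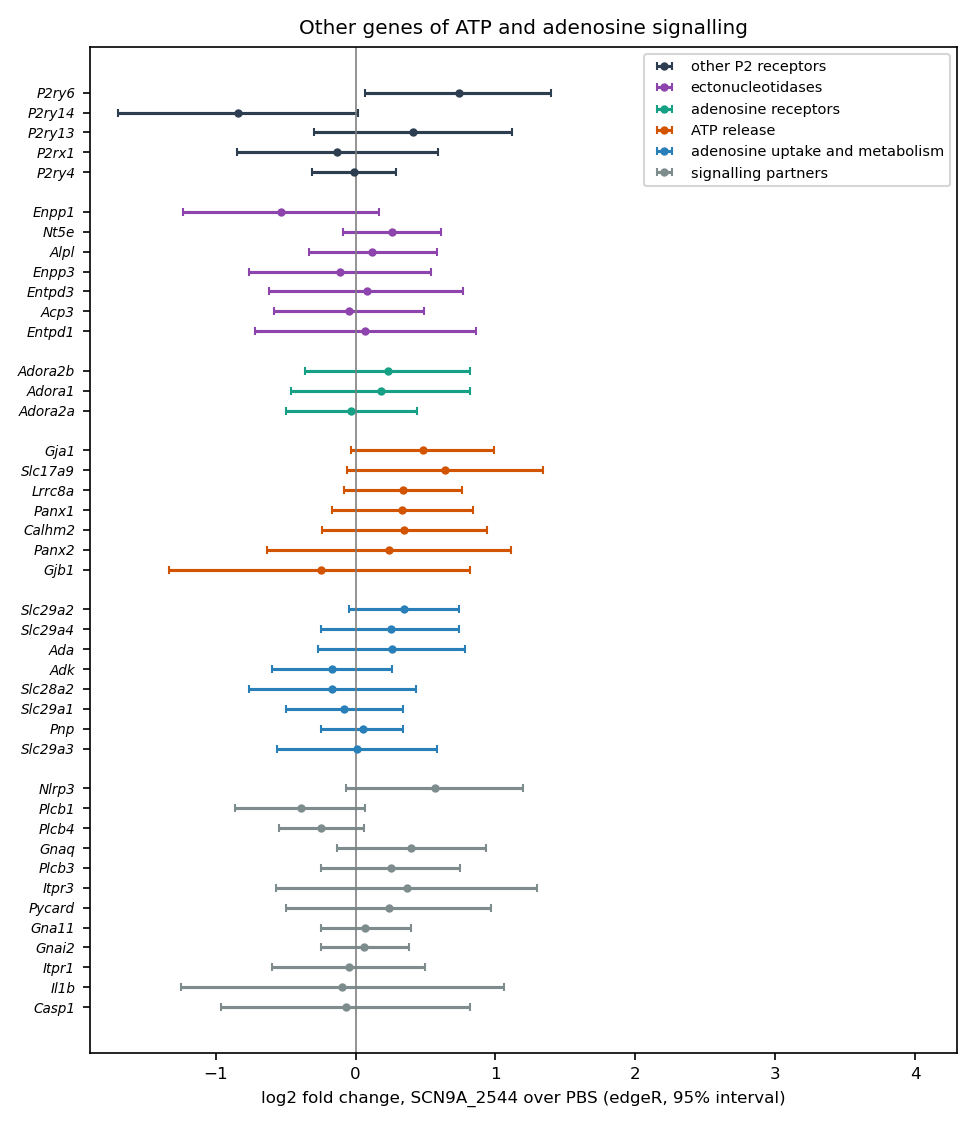
Log2 fold change, SCN9A_2544 over PBS, with 95% intervals from edgeR (x axis) for the 42 tested genes of nucleotide and adenosine signalling outside the 9 receptors, coloured by list. The interval of P2ry6 alone lies clear of 0, from 0.07 to 1.40, before adjustment over all genes.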

How the data were processed

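The authors deposited unnormalized estimated counts in 1 table with a column for each library; 11.6% to 12.4% of a library's values were not written as whole numbers, however small the fraction. Per the submitters' processing notes, the build was mRatBN7.2 and the tools included STAR 2.7.10a and DESeq2 1.44.0, whose roles are not listed. What program counted the reads, and with which annotation or strand setting, is not given in the sources used here. Per the labels' protocols, poly(A) RNA was sequenced. The planned test assumed counts, so values were rounded. Genes were filtered with filterByExpr (minimum count 10, minimum total 15), scaled by TMM and tested in edgeR 4.0.16 (R 4.3.3) by quasi-likelihood with Benjamini-Hochberg adjustment over 15186 genes and a threshold of 0.05; the SE is the log2 fold change divided by the square root of F. Log2 CPM used a prior count of 2. Single values were compared by two-sided exact permutation over all splits, and correlations by 100000 permutations. The edgeR and permutation procedures were tested on simulated data. DESeq2 1.42.0 and limma 3.58.1 served as alternatives. No pair of libraries agreed within sampling noise (chi-square per gene 7.45 to 205 over 45 pairs). Whether a sample is 1 animal is not stated, and p-values thus reflect only the spread between these samples, which may be technical. Named were all receptors, up to 3 genes of smallest p per pathway list and the 3 most alike genes per receptor; Tmem119, Sall1 and Olig2 were named as defining markers of central glia. Receptors, lists and tests were chosen with earlier results of these data known.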

Additional observations from a re-analysis of the deposited data

Results flagged for a closer look

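In 50 groups of 5 libraries, 4 values lay farther from their nearest neighbour than the limit of 0.71 of the group's range, where chance flags about 1 group in 20. P2rx7 in SCN9A_2544 replicate 3 was one, at 7.60 log2 CPM, with a gap of 0.77 of the range. The same library was highest for P2rx7 minus the pan-neuronal mean, at -0.12, and for P2rx7 minus the macrophage mean, at 3.06, with gaps of 0.76 and 0.79. These flags rest on the same P2rx7 value, so they are not independent. The pan-neuronal mean of that library, 7.72, was the lowest of all libraries. P2rx2 minus P2rx3 was highest in PBS replicate 3, at -4.69, with a gap of 0.72.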

How the results depend on the processing

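No receptor passed an adjusted p of 0.05 in any of the 23 alternatives to the edgeR fit; the lowest was 0.123. P2rx4, P2ry1 and P2ry2 kept their sign in 23 of 23. The number of receptors with an unadjusted p under 0.05 was 0 in the fit reported, beside 642 of all 15186 tested genes. It was 2 by limma voom with library weights, beside 3175 of all tested genes. With a covariate it was 2 for the pan-neuronal mean (1443 of all tested genes) and 3 for the Schwann cell and myelin mean (1260). For the macrophage mean it was 2 (957) and for the satellite glia mean 3 (4188). It was 1 without the 3 neuron-poor libraries (522 of 15395 tested genes), and 0 to 1 with 1 library left out (385 to 1642). Log2 fold changes turned by voom for P2rx2 (0.48), P2rx5 (0.02) and P2rx7 (-0.29), and with the Schwann cell mean for P2rx3 (-0.04). With the macrophage mean they turned for P2rx2 (0.08), P2rx5 (0.14), P2rx6 (0.11), P2rx7 (-1.0) and P2ry12 (-0.33), and with the satellite glia mean for P2rx2 (0.05), P2rx5 (0.41), P2rx6 (0.39), P2rx7 (-1.56) and P2ry12 (-0.57). Without the 3 libraries they turned for P2rx2 (0.24) and P2rx3 (-0.17), as did P2rx2 (0.28) and P2rx3 (-0.12) minus the pan-neuronal mean, P2ry12 minus the macrophage (0.26) and satellite glia (0.32) means, and P2rx2 minus P2rx3 (0.40). With 1 library left out, signs turned within -0.21 to 0.29 for P2rx2, -0.13 to 0.25 for P2rx3, -0.57 to 0.87 for P2rx7 and -0.13 to 0.39 for P2ry12. Likewise, group differences turned within -0.21 to 0.35 (P2rx2), -0.07 to 0.11 (P2rx3), -0.65 to 0.57 (P2rx7) and -0.27 to 0.50 (P2ry12) minus the pan-neuronal mean, within -0.13 to 0.31 (P2rx4), -0.64 to 0.09 (P2rx7) and -0.43 to 0.02 (P2ry12) minus the macrophage mean, within -0.55 to 0.15 (P2rx7) and -0.29 to 0.09 (P2ry12) minus the satellite glia mean, and within -0.21 to 0.30 for P2rx2 minus P2rx3. The cause of these changes was not tested. The macrophage and satellite glia means were higher on average in SCN9A_2544 libraries, so fits with them cannot fully separate covariate and siRNA. Replicate numbers are shared by the groups, but same-numbered libraries deviated together (correlation over 0.1) in 2 of 5 pairs, so the numbers were not taken as pairing. With the replicate block 1 receptor, P2ry2, had an unadjusted p under 0.05, beside 753 of all 15186 tested genes, and P2rx2 turned to 0.06. Over all genes, 642 had an unadjusted p under 0.05, against 985 of 22236 without a filter. DESeq2 called 12 genes, against 0. Other scalings shifted the median log2 fold change by -0.019 and -0.031. At a median SE of 0.223 small changes were not detectable, and P2rx2 and P2ry12 are limited further by their low counts.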
